A study of Mus musculus with 2 samples.

Results

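Open chromatin at small RNA genes was described in mouse frontal cortex by DNase-seq, in which DNase I cuts accessible DNA in nuclei and the cut sites are sequenced. The regions were those called in both libraries whose centre lay within 500 bp of a gene of biotype miRNA, snRNA, snoRNA, scaRNA, rRNA or misc_RNA and over 1 kb from every annotated start site (TSS) of a protein-coding gene. There were 195 such regions among 58659 regions shared by both libraries and 109538 regions in all. Of these, 16 were repeated-copy regions, with a near-identical copy elsewhere in the genome (at least 95% identity over at least 90% of the region), and 179 were single-copy regions. Both libraries came from tissue of female B6CASTF1/J mice, an F1 hybrid strain, at 25 days of age. The labels give no treatment and no engineered allele, and there was 1 group of 2 libraries, so nothing was compared between conditions and no test was made. The labels call them separate biological replicates but give both the same donor identifier, so the spread between them may be smaller than between animals. The values are the authors' signal per peak, normalized to read depth on a scale that is not stated, and are given for replicate 1 first and replicate 2 second.

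Small RNA genes are read by different polymerases. The spliceosomal RNAs U1, U2, U4 and U5 and the nucleolar RNAs U3 and U8 are made by RNA polymerase II, whereas U6, U6atac, 7SK and Y RNAs are made by RNA polymerase III; these genes share an external promoter whose distal element often holds an octamer bound by the factor Oct-1 and a site for ZNF143. 7SL, vault RNA, tRNA and 5S rRNA genes carry promoter elements inside the transcribed part, whereas most snoRNAs and many miRNAs are cut out of longer host transcripts that start elsewhere. In cortex, miR-9, miR-124, miR-128, miR-132 and miR-137 are known as neuronal miRNAs.

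The tissue label was checked at the promoters of marker genes, within 1 kb of an annotated TSS. Peaks were present in both libraries at the neuronal genes Syt1 (2.35 and 3.6), Tubb3, Camk2a and Neurod2, at the astrocyte genes Gfap and Slc1a2, at Cnp of oligodendrocytes and at Cx3cr1 of microglia (0.333 and 0.52). No promoter peak was called in either library at Alb of liver, Myh6 of heart, Hba-a1 of erythroid cells or Cd3e of T cells, nor at Mog, P2ry12 or Pecam1, and Cldn5 of endothelium had one in replicate 2 only. The lists hold 85603 and 87847 peaks and 214072 and 189951 footprints. In bulk tissue, a weak region in many cells and a strong one in few cannot be told apart.

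The octamer stretches are shown first because the octamer is the known distal element of these promoters and was present at 13 of 46 single-copy regions at such genes. Each line gives 60 bases of GRCm38.p6, read along the strand of the gene, with the octamer ATGCAAAT or its reverse complement ATTTGCAT in capitals.
Rnu2-10 (U2), chr11:101657981-101658040, + strand: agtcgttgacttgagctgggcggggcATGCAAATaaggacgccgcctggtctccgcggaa
Gm24497 (U2), chr1:72243958-72244017, + strand: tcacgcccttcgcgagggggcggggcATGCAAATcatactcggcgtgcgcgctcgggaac
Gm24407 (U4), chr5:115490001-115490060, + strand: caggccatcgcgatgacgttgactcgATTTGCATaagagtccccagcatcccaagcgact
Rnu5g (U5), chr9:65201987-65202046, - strand: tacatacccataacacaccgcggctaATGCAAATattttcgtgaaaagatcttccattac
Gm25313 (U5), chr9:65196863-65196922, - strand: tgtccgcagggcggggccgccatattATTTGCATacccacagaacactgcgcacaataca
Gm23296 (U6), chr12:52604785-52604844, - strand: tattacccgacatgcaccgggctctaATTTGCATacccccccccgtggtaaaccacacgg
Gm25064 (U6), chr9:63133048-63133107, + strand: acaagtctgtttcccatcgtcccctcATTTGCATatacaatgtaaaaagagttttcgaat
Rnu11 (U11), chr4:132270395-132270454, - strand: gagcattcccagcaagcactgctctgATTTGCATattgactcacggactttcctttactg
Snord118 (U8), chr11:69073153-69073212, + strand: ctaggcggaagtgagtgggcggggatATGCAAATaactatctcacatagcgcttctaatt

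The mature miRNAs at which the strongest or best-known brain regions lay are shown next, from RefSeq on GRCm38.p6, with the seed (bases 2 to 8) in capitals. Of 82 miRNA genes with a region, 51 were matched in RefSeq, with 89 mature sequences. miR-132 and miR-212 share the seed AACAGUC, and 1 region served both genes.
mmu-miR-132-3p: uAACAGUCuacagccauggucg
mmu-miR-212-3p: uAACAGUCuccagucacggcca
The seed GUCAGGC was shared by 6 miRNA genes of the Mir344 cluster that had a region.
mmu-miR-344-5p: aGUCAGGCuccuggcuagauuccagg
mmu-miR-344c-5p: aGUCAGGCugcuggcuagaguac
mmu-miR-344g-5p: aGUCAGGCuccuggcaggagu
Other miRNAs of neurons follow, with let-7i of the let-7 family.
mmu-miR-9-5p: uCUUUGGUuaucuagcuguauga
mmu-miR-128-3p: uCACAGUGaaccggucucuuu
mmu-miR-129-5p: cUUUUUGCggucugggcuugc
mmu-miR-137-3p: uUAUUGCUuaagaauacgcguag
mmu-let-7i-5p: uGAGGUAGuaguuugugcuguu

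Few small RNA genes had such a region. Of 6059 annotated small RNA genes, 195 had a region within 500 bp, or 3.22%. That this equals the number of regions is a coincidence, since some regions lay near several genes and some genes had more than 1 region. A region was present at 82 of 2202 miRNA genes (3.72%), 41 of 1383 snRNA genes (2.96%), 38 of 1507 snoRNA genes (2.52%), 27 of 562 misc_RNA genes, 6 of 354 rRNA genes and 1 of 51 scaRNA genes. With overlapping annotations counted once the snoRNA count was 31 of 1483, and with replicate 1 alone 59 snoRNA genes had a region. A further 161 genes had a shared region that lay within 1 kb of a coding TSS and was left out by the rule, 125 of them miRNA genes. Another 151 genes had a peak in 1 library only, and 5552 had none.

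The single-copy regions had a mean peak value of 0.199 to 5.99, within the 0.0682 to 32.1 of the other distal regions. This mean peak value over both libraries had a median of 0.907, against 0.751 in the 38639 other shared regions over 1 kb from a coding TSS. The medians by library were 0.848 and 0.959, against 0.695 and 0.799. By biotype, the 43 single-copy snRNA regions had the highest median among biotypes with over 1 region, 1.27, followed by the 27 misc_RNA regions (1.07). The 77 miRNA regions (0.828), 26 snoRNA regions (0.772) and 5 rRNA regions (0.658) lay nearer that of the other regions. The median number of CpG was 3.33 per 100 bp, against 1.69 in the other regions. Of the 179 single-copy regions, 113 (63.1%) were in the stricter peak lists of both libraries, beside 51.2% of the other regions. A footprint, a short protected stretch called by the authors, lay in 159 of them (88.8%) in both libraries, beside 84.3% of the other regions. The single-copy regions were also wider, with a median of 242 bp against 220 bp. The part of width in the footprint share was not tested.

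**Figure D1:**
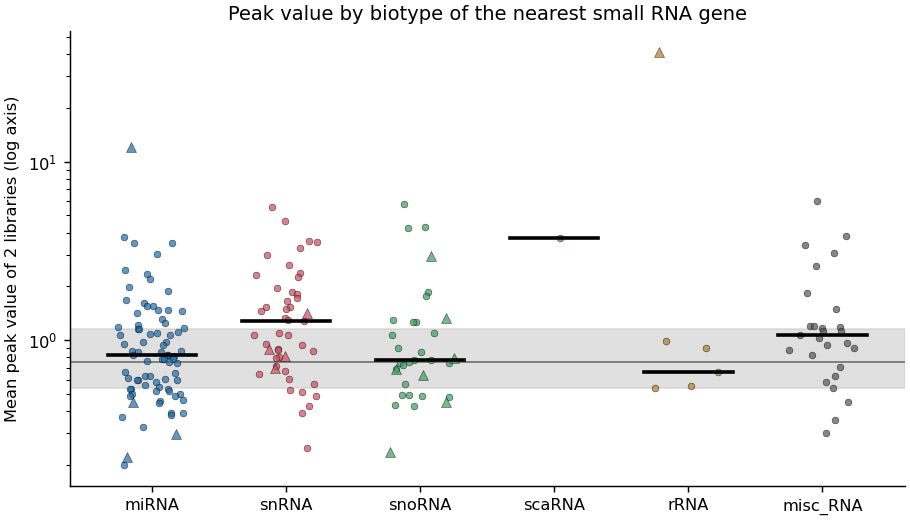
Mean peak value of the 2 libraries (log axis) for each region, by the biotype of its nearest small RNA gene. Circles are single-copy and triangles repeated-copy regions, bars are medians of the single-copy regions, and the grey line and band are the median and quartiles of the other shared regions over 1 kb from a coding TSS. The snRNA median (1.27) lies above the band and the miRNA median (0.828) within it.

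The libraries gave similar values at regions called in both, the only regions compared. These are 58659 of all 109538 regions, and a region called in 1 library only has no pair of values. A difference of over 2-fold was found at 3 of 179 single-copy regions (1.68%), beside 2.46% of the other regions. Replicate 1 was the higher library at 67 of the 179 (37.4%), and at 34.6% of the other regions. The region at Gm47299, an annotated miRNA that overlaps the 7SL gene Rn7s2 on the same strand, had the largest gap, with 0.497 and 1.16. Gm24733 (misc_RNA) had 0.571 and 1.19, and the region downstream of the U3 gene Rnu3b3 had 0.486 and 0.994. The fourth largest gap, 0.695 and 1.25 at the annotated miRNA Gm24811, was below 2-fold, as were those of all snRNA regions.

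**Figure D2:**
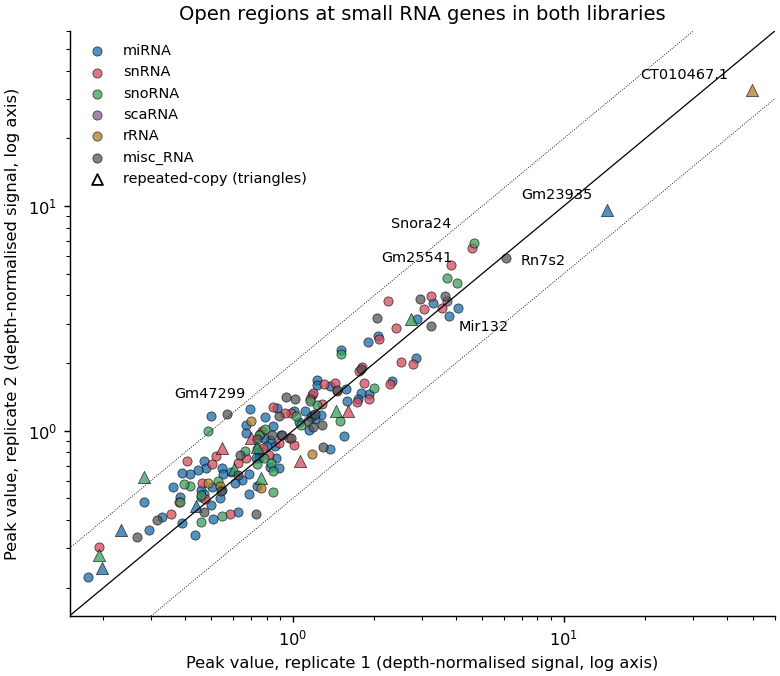
Peak value of each of the 195 regions in replicate 1 (x) and replicate 2 (y), both on log axes, coloured by biotype, with triangles for repeated-copy regions. The solid line is equality and the dotted lines are 2-fold; CT010467.1 (49.6 and 32.8) and Gm23935 (14.5 and 9.59) stand above the rest.

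Regions at spliceosomal RNA genes and their relatives are described by family. Genes were given to a family by RefSeq, which named one for 938 of 1383 snRNA genes and 1149 of 1507 snoRNA genes. The snRNA families other than U7 were pooled with U3, U8, 7SK, Y and telomerase RNA, giving 46 single-copy regions. Of these 46, 20 (43.5%) had their centre 150 to 350 bp upstream of the annotated 5' end. Among all 179 single-copy regions, which include these, 45 (25.1%) lay in that band. The band was not among the measures planned beforehand. The share upstream at any distance was alike, with 28 of 46 (60.9%) and 104 of 179 (58.1%). The median value of the 46 regions was 1.28, and 36 of them (78.3%) were in both stricter lists. The 1 U7 region, left out of the 46, had a mean value of 0.247 and its centre 190 bp downstream of the 5' end.

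The strongest region of this kind lay at Gm25541, a U6atac gene, whose RNA works in the minor spliceosome, with 4.57 and 6.52 at chr2:27540161-27540480. Its centre was 390 bp upstream of the gene and 106 bp from the TSS of the lncRNA Gm13421, and a second region over the gene itself had 0.893 and 0.879. So the upstream region was the higher one in both libraries.

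U6 RNA is the catalytic core of the spliceosome. Gm24204, a U6 gene, had 3.83 and 5.46 at a region centred 277 bp upstream (chr15:80088761-80088900), in an intron of the ribosomal protein gene Rpl3. Gm23296 had 3.54 and 3.53 at 259 bp upstream, and Gm25064 had 3.04 and 3.48 at 323 bp upstream. Of 697 annotated U6 genes, 8 had a region (1.15%), beside 2.96% of all snRNA genes. Another U6 gene had a shared region near a coding TSS. Rnu6, the gene with the family's plain name, had no peak within 500 bp in either library.

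U2 RNA pairs with the branch point of introns. Gm24497 (U2) had 3.23 and 3.99 at 243 bp upstream, 51 bp from the TSS of the lncRNA D230017M19Rik, and Gm25360 and Gm25939 lie in the same stretch of chromosome 1. Rnu2-10, on chromosome 11, had 1.91 and 1.39 upstream and 0.52 and 0.771 downstream of its 5' end. U2 genes had a region at 8 of 29 annotated copies (27.6%), beside 2.96% of all snRNA genes. These copies resemble one another in sequence and are not independent.

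U5 contacts both exons in the spliceosome, and its 5 regions had their centres between 294 and 242 bp upstream, a narrow range. Gm25313 had 2.25 and 3.77, higher in replicate 2, whereas Rnu5g had 1.16 and 1.38. U4, which holds U6 inactive, had 2 genes with a region, both on chromosome 5, with 2.28 and 1.61 at Gm24407 and 1.72 and 1.34 at Gm24265.

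U1, which recognizes the 5' splice site, differed in position. Its 8 regions, 2 of them repeated-copy, ranged from 257 bp upstream to 625 bp downstream of the 5' end, with a median of 130 bp downstream. Rnu1a1 had 0.768 and 0.999 upstream and 2.08 and 2.57 at a second region 133 bp downstream, so here the downstream region was the higher one. Of the 36-base words of that downstream region, 57.1% occur elsewhere in the genome, against 0% for the upstream one, and 43.6% do at Gm22513. The part of this in the values was not tested. Gm22513, another U1 gene, had 2.41 and 2.87, and its region lay 1013 bp from the TSS of Eapp, just outside the limit. Rnu1b1, Rnu1b2 and Rnu1b6 had no peak in either library.

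Rnu11, of the minor spliceosome, had neighbouring regions of like height, 1.46 and 1.51 upstream and 1.83 and 1.63 over the gene. Rnu12 and Rnu7, which makes the RNA for histone mRNA ends, had shared regions within 1 kb of a coding TSS (Poldip3 and Grcc10) and were left out by the rule. Of 10 listed small nuclear RNA genes in the annotation, 4 had a region (40%), beside 2.96% of all snRNA genes. Another 2, Rnu12 and Rnu7, were left out as above, and 4 had no peak.

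Rn7sk, whose RNA holds back the elongation factor P-TEFb, had 3.25 and 2.92 at chr9:78175841-78176000, centred 287 bp upstream and 6 bp from an annotated TSS of the lncRNA C920006O11Rik. Rny1, a Y RNA gene, had 1.79 and 1.88 at 300 bp upstream, and Rny3 had a peak in replicate 1 only (0.542). Terc, the template RNA of telomerase, had 1.14 and 1.1 at its 5' end. The gene body of Rn7sk lay entirely in stretches whose cut rate passed the authors' 0.05 limit on false discovery in both libraries, and that of Rny1 lay outside them.

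U3 and U8 act in the processing of ribosomal RNA. Snord118 (U8) had 1.5 and 2.2 at 237 bp upstream, with 5 and 7 footprints, in an exon of Tmem107, and 1.03 and 1.16 at a region over the gene. Of 15 annotated U3 genes, 10 had a region within 500 bp, but many are annotated more than once at the same place. With overlapping annotations counted once, 5 of 8 U3 loci had a region, beside 2.09% of all snoRNA loci. Rnu3b4 had 1.23 and 1.3 at 326 bp upstream, and Rnu3a had 0.74 and 0.708 at a region centred 703 bp from its 5' end, beyond the gene. Snord13 (U13) had a shared region at the TSS of Tti2, and Snora73a, Snora73b, Snord14a and Snord17 had no peak.

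**Figure D3:**
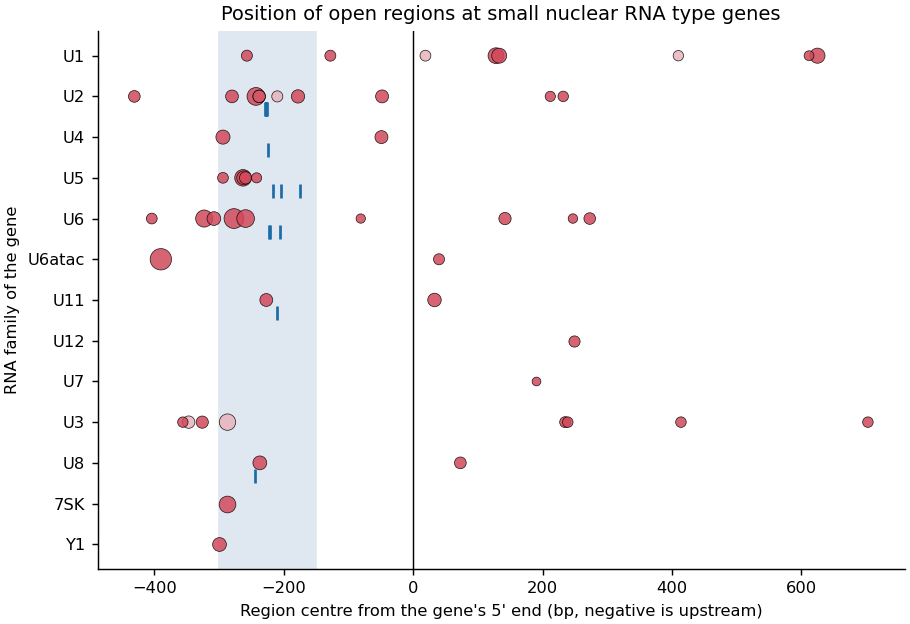
Centre of each region relative to the 5' end of its gene (x, bp, negative is upstream) for 13 RNA families (rows). Circle area grows with the mean peak value, pale circles are repeated-copy regions, blue ticks are octamer matches and the band marks 150 to 300 bp upstream; all octamer ticks lie inside that band.

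The octamer was searched on both strands in the 300 bp around each centre, as 1 of 18 motifs, and holds none of the others within it. It was present at 13 of the 46 single-copy family regions (28.3%), at 15 of all 179 single-copy regions (8.38%) and at 762 of the 38639 other regions (1.97%). The 13 matches at the single-copy family regions lay between 245 and 175 bp upstream of the 5' end, with a median of 223 bp. A footprint overlapped 6 of the 13 in both libraries and 9 in at least 1, whereas 21 of 788 matches (2.66%) in the other regions had one in both. Of 2 matches at repeated-copy family regions, 0 had one in both libraries. The 2 sets are unlike, since the single-copy family regions held a median of 1.29 footprints per 100 bp, against 0.938 in the other regions. In both sets a match could lie outside the called region. The part of this in the difference was not tested. In the 6 U2 stretches with the octamer, a GC box (GGGCGG) lay within the same 60 bases each time. Over all 15 stretches, which include these, 8 held one, and it was at 34.8% of the 46 regions. The U2 copies resemble one another in sequence, and 2 of the 6 lay at repeated-copy regions, so they are not independent. The ZNF143 core (ACTACA) was at 5 of the 46 regions (10.9%), near the 10.1% of the other regions. A match says only that the letters are present.

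The same search was made at every annotated gene of 14 families, here with U7 and without telomerase RNA. These were 957 genes, with or without a region. An octamer lay 150 to 300 bp upstream of 40 of them, a window chosen after the positions above were seen. Of these 40 genes, 24 (60%) had a shared region within 500 bp, counting those near a coding TSS, and 18 had a region of the set described here. Of the 917 genes with no octamer there, 29 had a shared region, or 3.16%. The 2 pools differ in their families. The 917 held 680 U6 and 121 U1 genes, whereas the 40 held 17 U6, 11 U2 and 1 U1 genes. The part of family in the pooled difference was not tested. Among U6 genes the counts were 5 of 17 with an octamer and 4 of 680 without. Among U2 genes they were 9 of 11 and 0 of 18, and among U5 genes 4 of 4 and 2 of 7. Among U12 genes the counts were alike, 1 of 2 and 1 of 2. At U3 no exact octamer was found, and the 10 genes with a region, at 5 loci, are among the 29. With overlapping annotations counted once, 24 of 910 loci without an octamer had a shared region (2.64%), and the 24 of 40 with one did not change. With the octamer sought anywhere in 500 bp upstream, the share was 35.6% (26 of 73).

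**Figure D4:**
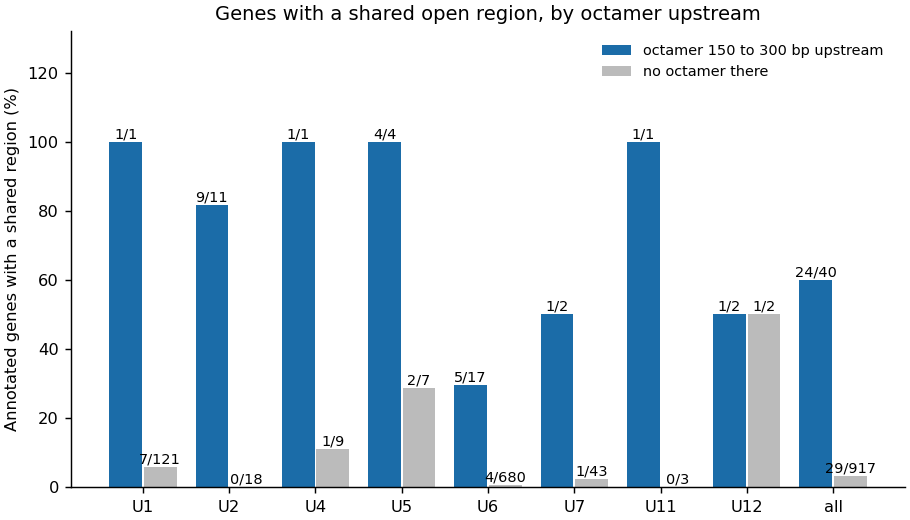
Percent of annotated genes with a shared region within 500 bp, for genes with an octamer 150 to 300 bp upstream (blue) and without one (grey), by RNA family; fractions above the bars are genes with a region over genes. "All" pools 14 families, with 24 of 40 against 29 of 917.

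At 7SL and vault RNA genes the regions lay over the start of the gene. Rn7s2, a 7SL gene (7SL RNA is the core of the signal recognition particle), had the single-copy region with the highest mean and the highest value in replicate 1, 6.11 and 5.88 at chr12:69361421-69361640. In replicate 2 those at Snora24 (6.86) and Gm25541 (6.52) were higher. The Rn7s2 region was centred 49 bp upstream of the 5' end and overlapping the gene. Its twin Rn7s1 had 4.37 and 5.9, at a region within 1 kb of a TSS of Rps29. Vaultrc5, which makes the RNA of the vault particle, had 3.66 and 3.96 with its centre 46 bp upstream.

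Genes annotated as miRNA overlapped tRNA genes of RefSeq in 3 regions on chromosome 13. The gene n-TStga1, a serine tRNA by its symbol, had 4.07 and 3.53 at the gene and 2.84 and 2.1 at a region over the neighbouring tRNA gene n-TMcat6. Mir1983 overlapped n-TItat14, with 3.76 and 3.23 and with 5 and 7 footprints in 220 bp, the joint densest of the single-copy regions at 2.73 per 100 bp. These 3 are among the 6 highest regions given to the miRNA biotype. Over all of RefSeq, 231 of 403 tRNA genes (57.3%) overlapped a shared region.

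At 5S rRNA genes few regions were found, as among all rRNA genes, of which 6 of 354 had one (1.69%). None of the 7 listed 5S genes (such as n-R5s1 and n-R5s2) had a peak, and RefSeq's 29 matched 5S genes had no region. At the share of all rRNA genes, groups this small can hold none. The single-copy rRNA regions lay near Gm24931 (1.18 and 0.788), n-R5s171 (0.701 and 1.11), n-R5s213, Gm23764 and Gm25908, and 1 of the 5 overlapped its gene.

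The 2 strongest snoRNA regions, at Snora24 and Snord49b, lay near the start of a noncoding transcript. Snora24 had 4.68 and 6.86 at chr3:123508301-123508600, and the centre was 384 bp upstream of the snoRNA and 46 bp from the TSS of Snhg8, its host. Snord49b had 4.05 and 4.53, with its centre 67 bp from the TSS of 2410006H16Rik. Gm23639 (SNORA13 family) had 1.99 and 1.55 at 42 bp from the TSS of Epb41l4aos. Snord104, the next in strength, had 3.72 and 4.79, with the nearest lncRNA TSS 315168 bp away. Of the 26 single-copy snoRNA regions, 6 (23.1%) were within 1 kb of a lncRNA TSS, as were 33 of all 179 (18.4%) and 3.73% of the other regions. Scarna2, a guide RNA of Cajal bodies, had the only scaRNA region, 3.72 and 3.77, centred 49 bp upstream. Among SNORA17 family copies, a repeat-like group, 5 of 443 had a region (1.13%), beside 2.52% of all snoRNA genes. The highest was Gm23596 with 1.49 and 1.1.

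Several genes of the misc_RNA type are annotated pieces of longer lncRNAs. Regions of this type lay within 1 kb of a lncRNA TSS in 12 of 27 cases (44.4%). Gm27972 had 2.96 and 3.85 inside Dleu2, 40 bp from the TSS of Gm27017, and Gm27286 had 2.04 and 3.17. Gm27596 had 0.944 and 1.41 at 111 bp from the TSS of Meg3, an imprinted lncRNA. Gm27875 and Gm27321 lay at Jpx and Ftx, lncRNA genes of the X-inactivation centre, where Gm27875 had 1.21 and 1.19 and Gm27321 had 0.735 and 0.919.

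miRNA genes known from brain had a region in 9 of 57 cases (15.8%), against 3.72% of all miRNA genes. Another 4 had a peak in 1 library only and 44 had none. The list was drawn up with earlier results of these data known, and miRNAs in 1 transcript share a region.

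Mir132 and Mir212, induced by activity in neurons, shared the strongest, 3.29 and 3.72 at chr11:75173541-75173860, in an intron of a lncRNA and over the Mir132 hairpin. Mir9-3 had 2.88 and 3.15 at a region centred 374 bp upstream, inside its host Mir9-3hg. Both regions hold a cAMP response element (TGACGTCA, the site of CREB). It was in 6 of the 195 regions (3.08%), in 0.595% of the other regions and in 1.33% of all shared regions. Among single-copy miRNA regions it was in 2 of 77 (2.6%). The element holds a CpG, and the median CpG per 100 bp was 3.33 in the 195 regions and 1.69 in the other regions. The stretches are given with the element in capitals, beside the one at Rn7s2.
Mir132, chr11:75173620-75173679, + strand: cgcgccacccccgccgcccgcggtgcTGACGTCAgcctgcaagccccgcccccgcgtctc
Mir9-3, chr7:79504870-79504929, + strand: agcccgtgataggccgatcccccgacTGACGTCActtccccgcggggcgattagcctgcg
Rn7s2, chr12:69361500-69361559, - strand: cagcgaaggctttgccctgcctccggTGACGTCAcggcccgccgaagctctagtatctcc
A footprint overlapped the element in both libraries at Mir9-3 and at Rn7s2, and in neither library at Mir132.

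Mir129-2 had 1.74 and 1.38 at 477 bp upstream, inside Mir670hg. Mir137 had 0.887 and 0.679 at a region over the gene, 49 bp from the TSS of the lncRNA Gm26871. Mir128-2, in an intron of Arpp21, had 0.825 and 0.908. Mir181a-1 and Mir181b-1 shared a weak region of 0.458 and 0.508. So the listed brain regions ran from near the top of the miRNA regions to below their median. Mir9-1, Mir124a-1, Mir128-1 and Mir134 had no peak within 500 bp in either library, and Mir124a-2 and Mir124a-3 had a peak in 1 library each.

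Mirlet7i was the only gene of 12 in the let-7 family, regulators of developmental timing, with a region. It had 1.59 and 1.35 at 316 bp upstream and 0.865 and 0.754 over the gene. Mirlet7a-1, Mirlet7a-2, Mirlet7b and Mirlet7c-1 had no peak. Of 11 glial miRNA genes, none had such a region, beside 3.72% of all miRNA genes, a share at which a list this short can hold none. Mir219a-1 had a shared region at the TSS of Ring1 (2.36 and 2.33), Mir27b and Mir24-1 had a peak in replicate 2 only (0.588), and Mir219a-2, Mir338, Mir23a and Mir27a had no peak.

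Among 43 miRNA genes best known from other organs, 1 had a region (2.33%), near the 3.72% of all miRNA genes. It was Mir145a, a smooth muscle miRNA, with 2.06 and 2.63 at a centre 554 bp from its 5' end, in an exon of the lncRNA Bvht. Mir122 of liver and Mir1a-1, Mir1a-2 and Mir133a-1 of muscle had no peak. Outside the lists, Mir210, a hypoxia-induced miRNA, had 1.9 and 2.49.

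**Figure D5:**
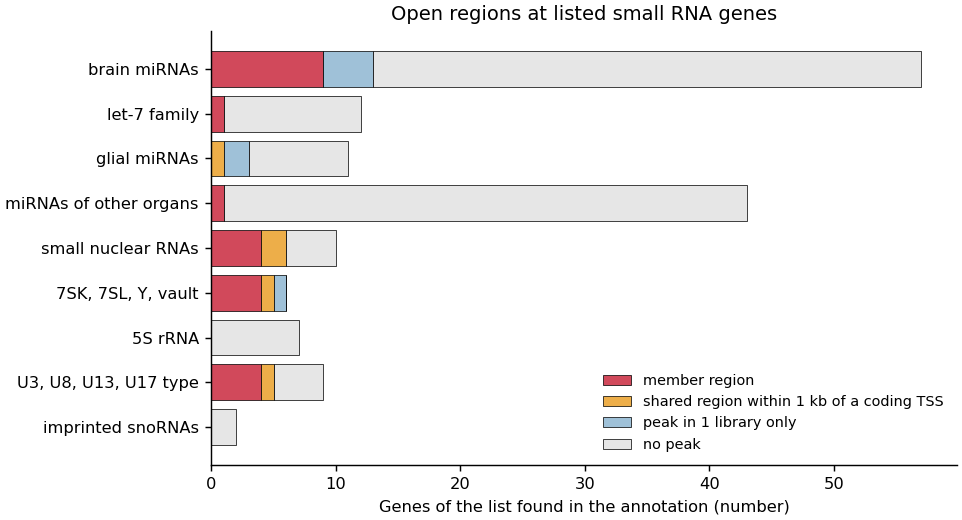
Number of genes in each list (x) found in the annotation, split by whether a region described here, a shared region within 1 kb of a coding TSS, a peak in 1 library only or no peak lay within 500 bp. Brain miRNAs have 9 of 57 and miRNAs of other organs 1 of 43, beside 82 of all 2202 miRNA genes.

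The Mir344 cluster lies on chromosome 7. Of 13 annotated Mir344 genes, 8 had a region and 3 more a peak in 1 library, beside a region at 3.72% of all miRNA genes. The 8 genes lie in the same cluster and 6 of them share a seed, so they are not independent. Mir344g had the highest, 1.01 and 1.22, then Mir344-2 with 0.904 and 0.959 and Mir344 with 0.74 and 0.828. The weakest was Mir344d-1 with 0.232 and 0.36, a repeated-copy region, as was that at Mir344h-1. They lay between chr7:61683041-61683261 and chr7:62046141-62046420, and the lncRNAs A230057D06Rik and A330076H08Rik held all of them but those at Mir344d-1 and Mir344f.

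The repeated-copy regions are described apart, since reads from identical copies cannot be placed uniquely. How such reads were handled is not known here. Of the 195 regions, 14 (7.18%) had at least 50% of their 36-base words elsewhere in the genome, against 1.14% of the other regions. Of these 14, 10 were repeated-copy and 4 single-copy regions. The median value of the 16 repeated-copy regions was 0.743.

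The highest of all 58659 shared regions by mean value was one of them. It lay at chr17:39846781-39846920, in CT010467.1, annotated as rRNA, and in the RefSeq pseudogene Rn18s-rs5, a relative of 18S ribosomal RNA, with 49.6 and 32.8. The 1 copy found, of 99.3% identity on chromosome 6, overlapped a shared region of 0.938 and 0.719 only, so the values at these copies were far apart. Copies were sought only in the GRCm38.p6 sequences, and no separate ribosomal DNA repeat sequence was searched. The part of reads from other ribosomal RNA copies in the value was not tested. In replicate 2 the chromosome 17 region ranked second.

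Gm23935, annotated as a miRNA in an intron of Zc3h7a on chromosome 16, had 14.5 and 9.59, and a single-copy region just upstream had 1.54 and 0.948. Its 3 copies lay on 3 chromosomes, and 2 of them overlapped other regions of the set, at Gm24270 (2.32 and 1.66) and Gm24187 (0.791 and 1.15), with 99.3% identity. Those regions reach past the copied stretch and count as single-copy. Even so, 69.3% (Gm24270) and 57.9% (Gm24187) of their 36-base words occur elsewhere in the genome. Whether Gm23935 and its copies derive from ribosomal RNA genes was not tested, so the miRNA label is that of the annotation only. The genes at these 3 places are printed to show how alike they are, with a base that differs from Gm23935 in capitals.
Gm23935, chr16:11144125-11144181, + strand: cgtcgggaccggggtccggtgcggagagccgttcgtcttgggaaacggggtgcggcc
Gm24270, chr9:56223715-56223771, - strand: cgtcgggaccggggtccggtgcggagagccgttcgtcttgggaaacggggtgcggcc
Gm24187, chr13:9834469-9834525, - strand: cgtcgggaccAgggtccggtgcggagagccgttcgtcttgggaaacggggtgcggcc

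Other repeated-copy regions were pairs of one family. The U3 genes Rnu3b3 (2.74 and 3.15) and Rnu3b1 (1.44 and 1.23) matched each other at 98% identity, and the higher value was at Rnu3b3 in both libraries. The U2 genes Gm24950 (1.6 and 1.22) and Gm23971 (1.06 and 0.731) matched at 98.3%. Of 67 annotated SNORD116 copies, imprinted snoRNAs of the Prader-Willi region that lie inside Snhg14, 3 had a region (4.48%), beside 2.52% of all snoRNA genes. Each of the 3 had 64 or more near-identical copies. The highest was Gm25210 with 0.763 and 0.617, and Gm23141 had 0.283 and 0.622, over 2-fold apart. None of 131 SNORD115 copies from the same host had one, beside the same 2.52%. Both counts may depend on how reads from copies were placed, which is not known here. Snord64 and Snord107 had no peak.

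In all, 16 genes had more than 1 region as their nearest gene, and the region farther upstream was the higher at 10 of them. The 500 bp limit fell between values of like size. Just inside, Mir1928 at 494 bp had 0.627 and 0.434 and Gm26469 at 500 bp had 1.91 and 1.46. Just outside, Gm26083 at 503 bp had 1.46 and 1.68.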

How the data were processed

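Each library has 2 peak lists, a footprint list and a table of false discovery rates, made by the authors from that library alone on mm10, per the text files deposited with them. Column 7 of the deposited peak lists is the authors' read-depth normalized signal, a whole multiple, to within 0.1 of a step, of 0.00565 in replicate 1 and 0.00571 in replicate 2. The median region had 149 and 168 such steps. What 1 step stands for is not stated. The deposited false discovery rates (q-values) of the cut rate list stretches of at most 0.05, and only positions were used from the footprints. Aligner, callers, versions, depth, and the treatment of multi-mapping reads and of CAST alleles: not given in the sources used here.

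The longer peak lists were merged (overlap of at least 1 bp), and the highest peak of each library gave the value. Genes are those of GENCODE vM21 and sequences those of GRCm38.p6. Copies were found with blastn 2.17.0, false discovery rate overlaps with bedtools 2.31.1, and the rest with pandas 2.3.3, numpy 2.4.6 and pysam 0.24.0. Merging, gene distance and footprint overlap were tested on simulated data. The members, lists and motifs were chosen with earlier results of these data known. Named were the 6 highest single-copy regions per biotype, the 6 highest repeated-copy regions, listed genes with a region, up to 4 per list with no peak, the 4 largest library gaps and the 4 densest in footprints; other genes were named after their values were seen. No test was made, since there is 1 group. Alternatives were the stricter lists, other gene distances, gene 5' ends as coding TSS, 50% overlap, other copy definitions and each library alone.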

Additional observations from a re-analysis of the deposited data

How the results depend on the processing

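Of 61 recalculated main values, 44 stayed close to the value given (within 1.5 times for counts, within the spread between libraries for medians, within the exact 95% binomial interval for shares), and 17 moved. With the stricter peak lists there were 123 regions in place of 195, at 126 genes in place of 195, with a single-copy median of 1.25, footprints in both libraries at 98.2% and a 2-fold difference at 0%. With a gene distance of 250 bp there were 117 regions, 9 of them repeated-copy, at 121 genes, 15 of them listed, in place of 23. With 1 kb there were 299 regions, 26 of them repeated-copy. Leaving out each library in turn gave 272 to 291 regions, 27 to 29 of them repeated-copy, a single-copy median of 0.653 to 0.759, and a footprint at 82.8% to 84.9%. The octamer share of 60% fell to 35.6% with 500 bp upstream searched, an alternative chosen after seeing the data, and was 60% to 65% with either library alone and 60% with overlapping annotations counted once, also chosen after seeing the data. Of 42 values by biotype, 12 moved: snoRNA genes with a region, 38, became 59 without replicate 2, 58 at 1 kb, 23 with the stricter lists and 20 at 250 bp, scaRNA genes 3 without replicate 1 and 2 at 1 kb, rRNA genes 15 at 1 kb and 3 at 250 bp, misc_RNA genes 41 at 1 kb and 16 at 250 bp, snRNA genes 24 at 250 bp and miRNA genes 49 with the stricter lists. Agreement between libraries could not be computed from 1 library. No paired analysis was possible because there is 1 group. Depth is unknown, so no limit for genes without a peak can be given.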
